A study of Mus musculus with 9 samples.

Results

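Between non-induced adipocyte precursors and day 8 of beige differentiation, 68 of the 55359 genes in the count table had a mean level at day 4 that lay well under both ends. They were chosen from the counts themselves. For each library, CPM, a gene's counts scaled to a column total of 1000000, were taken, and a gene was kept where the day 0 and day 8 means were both 3 or more and both at least 2.5 times the day 4 mean. Predicted genes, genes with Rik names, mitochondrial genes, genes whose symbols start with Ifi or Oas, and Irf7, Ptgs2 and Car6 were dropped by name, which removed 8 of the 76 genes past the thresholds. Because the day 4 dip and the later return chose the genes, both are given as a description with no test. The rule set no bound on the ratio of day 8 to day 0, although it used both means, and that comparison was tested. All 68 genes are annotated as protein coding, and all passed the filter on low counts that left 14649 genes to be tested.

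The cells were adipocyte precursors (preadipocytes) of mouse inguinal white adipose tissue, a depot under the skin in which beige fat cells can form. At day 0 they had received no inducer, whereas days 4 and 8 followed exposure to dexamethasone, 3-isobutyl-1-methylxanthine (IBMX), indomethacin, insulin, triiodothyronine and rosiglitazone. From 2 days after induction onward the medium lacked dexamethasone, IBMX and indomethacin, so day 4 and day 8 cells were both sampled in maintenance medium. There were 3 libraries for each day, and the labels name no strain or age and do not say whether replicates were separate cultures. The p-values speak only of the variation among these libraries, part or all of which may be technical.

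Adipogenesis replaces the matrix-producing, contractile state of a fibroblast-like precursor with a lipid-storing state driven by PPARγ and C/EBP factors, and beige cells add a thermogenic programme. Several signals that the 68 genes belong to are known to act on that process: activin and transforming growth factor β keep precursors from differentiating, antagonists such as gremlin 1 block bone morphogenetic proteins, and interferons induce antiviral genes. The integrated stress response, in which the translation factor eIF2α is phosphorylated and ATF4 is made, induces the transcription factor CHOP (gene Ddit3), the pseudokinase Trib3 and GADD45 proteins. Glucocorticoids such as dexamethasone repress many inflammatory genes, and agents that raise cyclic AMP, such as IBMX, induce immediate early genes.

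Library totals ranged from 26387408 to 31474490 counts. Levels in the text are CPM of the library total scaled by the trimmed mean of M-values (TMM), and they compare 1 gene across libraries, not genes of different lengths. Of the fat cell genes, Adipoq had mean levels of 0.0216, 2168 and 1444 CPM at days 0, 4 and 8, Plin1 had 0.0287, 1113 and 1255 CPM and Fabp4 had 18.2, 18620 and 21180 CPM. The precursor gene Pdgfra had 183, 101 and 46.5 CPM. Ly6a, another precursor gene, had 349, 697 and 303 CPM, whereas Dpp4 stayed under 1 CPM in every library. Day 4 replicate 2 stood apart from the other day 4 libraries: its 21 adipocyte genes summed to the lowest level of the day, in a range of 34800 to 60300 CPM, and its 25 precursor genes to the highest, in a range of 1800 to 3520 CPM. The defining markers of natural killer cells (Ncr1) and muscle (Myod1) were at 0 in all libraries, and the leukocyte gene Ptprc averaged 0.192, 0.0783 and 0.155 CPM at days 0, 4 and 8. Summed levels of 20 macrophage markers spanned 52.7 to 124 CPM at day 0, 75.9 to 99.6 CPM at day 4 and 11.0 to 72.5 CPM at day 8, and no day 4 sum fell under the lowest sum of day 0. The macrophage gene Cd68 averaged 3.86, 2.33 and 7.04 CPM at days 0, 4 and 8. Other macrophage genes did not have their lowest mean at day 4. Adgre1 averaged 0.790, 1.08 and 1.22 CPM, and Csf1r averaged 5.54, 4.18 and 3.63 CPM. Summed levels of 16 lymphocyte markers spanned 4.62 to 6.90 CPM at day 0, 0.630 to 1.21 CPM at day 4 and 0.666 to 1.73 CPM at day 8, so that every later library was under every day 0 library. The part of any of these cell types in the levels that follow was not tested, and in bulk RNA fewer cells of a type and less RNA per cell cannot be told apart.

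**Figure D1:**
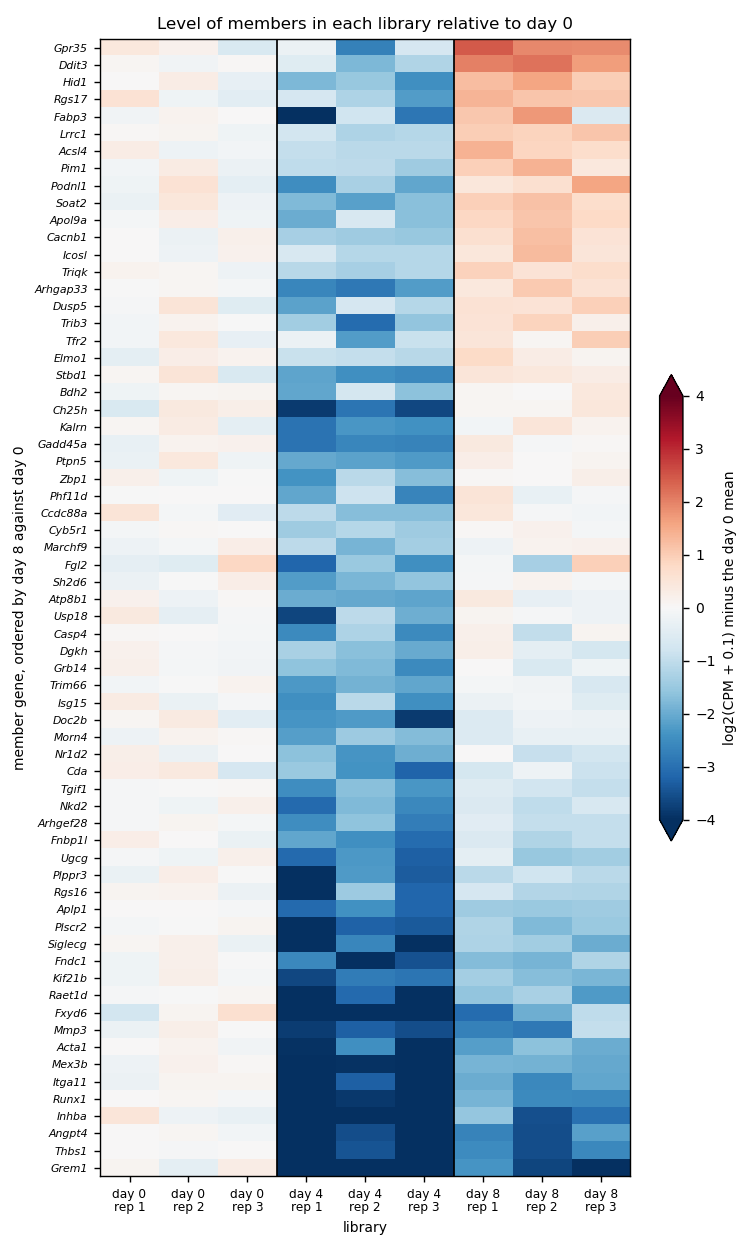
Level of 66 of the 68 genes in each of the 9 libraries, drawn as log2(CPM + 0.1) minus the mean of the 3 day 0 libraries (colour scale, log2 units; values past -4 or 4 share the end colour). Genes run down the page by their day 8 against day 0 log2 fold change, and the blue block is the day 4 dip that chose them; at day 8 the genes spread from far under day 0, with Grem1 at 10.4% of its day 0 mean, to far above it, with Gpr35 at 423%.

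The depth of the dip differed among the 68 genes. Day 4 means ran from 0.781% of the day 0 mean for Grem1 to 51.1% for Gpr35, with a median of 23.4% (CPM with the scaling described above, under which 10 of the genes no longer met the bound). In 65 of the 68 genes every day 4 library lay under every day 0 and every day 8 library, a pattern that 6.23% of all tested genes had, and for genes picked by their dip this share is a description. The exceptions were Thbs1, Gpr35 and Tfr2. The genes that passed the 2.5-fold bound most narrowly, by the smaller of their 2 ratios, were Cyb5r1 (2.518), Gpr35 (2.525), Tgif1 and Icosl (2.531 each) and Tfr2 (2.547). Those that missed it most narrowly were Nxph4 (2.467), Lonrf1 (2.464), Camk2n1 (2.462), Pou6f1 (2.458) and Wfs1 (2.443). At the level bound, Ch25h (3.344 CPM of the column total) and Nkd2 (3.372) were among the genes just inside, and Rnd1 (2.941), Dlg2 (2.939) and Prtn3 (2.832) were just outside.

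Membership depended on the day 4 libraries and on the scaling. With TMM-scaled CPM the same thresholds kept 61 genes, of which 58 were shared with the 68, and Acsl4, Ddit3, Dusp5, Elmo1, Gpr35, Icosl, Lrrc1, Pim1, Tfr2 and Triqk were lost. Without day 4 replicate 2 they kept 127 genes, among them 63 of the 68. Leaving out any other single library gave between 58 and 84 genes.

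How far the genes came back was measured by day 8 against day 0. At day 8, 13 of the 68 genes were higher than at day 0 (19.1%), 22 were lower (32.4%) and 33 did not pass the test (48.5%). Of all tested genes 63.4% passed in this comparison, 33.5% higher and 29.9% lower. Of those called, 4 were at least 2-fold higher (22.5% of all tested genes were) and 19 at least 2-fold lower (19.7% of all tested genes). The median log2 fold change of the 68 genes was -0.05, and that of all tested genes was 0.028. Day 8 means lay between 10.4% and 423% of the day 0 mean, with a median of 96.4%; 7 genes were under 25%, 13 between 25% and 50%, 17 between 50% and 100%, and 31 over 100%. By library, every day 8 value was under every day 0 value in 25 genes (36.8%, against 35.3% of tested genes), above it in 15 (22.1%, against 37.4%), and the days overlapped in 28.

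The count of higher genes depended on the scaling. With library totals in place of TMM, log2 fold changes of all tested genes shifted by -0.36, and 6 of the 68 genes were higher and 27 lower; the share of all calls that were higher went down to 37.5%, against 52.9% with TMM. The 6 were Gpr35, Ddit3, Hid1, Lrrc1, Acsl4 and Pim1. Among the 58 genes that the rule also keeps under TMM scaling, 6 were higher and 22 lower. Those 6 were Hid1, Arhgap33, Cacnb1, Soat2, Apol9a and Rgs17, so only Hid1 was in both sets of 6. Without day 4 replicate 2 the counts were 15 higher and 24 lower.

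**Figure D2:**
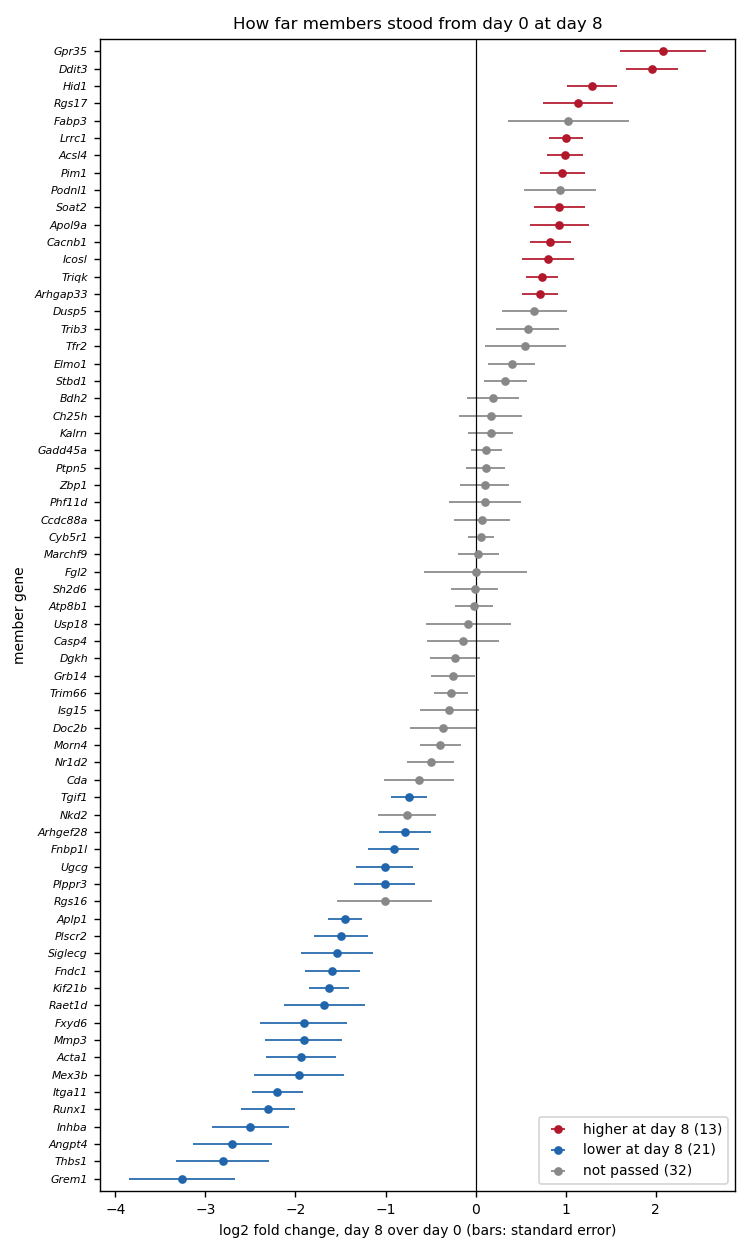
Log2 fold change of day 8 over day 0 for 66 of the 68 genes (horizontal axis), with bars for the standard error of the edgeR fit. Red points are the 13 drawn genes higher at day 8, blue points the 21 lower and grey points the 32 that did not pass at an adjusted p of 0.05; the values run from -3.26 for Grem1 to 2.08 for Gpr35.

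The 3 stress response genes dipped and came back to or above the precursor level. Ddit3 (ENSMUSG00000025408), which encodes the stress transcription factor CHOP, had 145, 122 and 142 CPM at day 0, 97.9, 38.7 and 58.7 CPM at day 4 and 547, 609 and 431 CPM at day 8. Every day 8 library was above every day 0 library, and within day 4 the values spread over more than a 2-fold range with replicate 2 lowest. Ddit3 was higher at day 8 than at day 0 (log2 fold change 1.96 ± 0.29, adjusted p = 0.000191), and at day 4 it held 47.7% of the day 0 mean. Trib3, a pseudokinase that ATF4 and CHOP induce and that restrains the kinase AKT, had 166, 197 and 177 CPM at day 0, 68.5, 21.1 and 59.5 CPM at day 4 and 265, 331 and 208 CPM at day 8. The day 8 libraries were all above the day 0 libraries, yet the gene did not pass (log2 fold change 0.58 ± 0.35, adjusted p = 0.167). Of the settings run, it passed only without day 4 replicate 2, the lowest library for this gene (0.52, adjusted p = 0.0099). With total counts the value was 0.20 (adjusted p = 0.59). Gadd45a, a growth arrest gene induced by DNA damage and other stresses, had 41.5, 56.3 and 57.8 CPM at day 0, 6.55, 8.31 and 7.92 CPM at day 4 and 66.8, 49.9 and 52.9 CPM at day 8. Its day 4 libraries were close to each other, at 14.6% of day 0, and its day 8 and day 0 libraries overlapped (log2 fold change 0.12 ± 0.17, adjusted p = 0.543).

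Other ATF4 targets moved in both directions at day 4, in shares close to those of all tested genes. In a list of 28 tested ATF4 targets, 26 are not among the 68 genes. In 4 of the 26 every day 4 library lay under all others (15.4%, against 6.23% of all tested genes). Of the 26, 8 were higher (30.8%, against 28.6% of all tested genes) and 8 lower (30.8%, against 26.0%) at day 4 than at day 0. Of all tested genes 54.6% passed in this comparison. At day 8 against day 4, 11 of the 26 were higher (42.3%, against 11.7%) and 2 lower (7.69%, against 10.8%). Here 22.4% of all tested genes passed. Gdf15, a stress-induced hormone, rose most, with 6.64, 7.60 and 100.3 CPM at days 0, 4 and 8 (log2 fold change of day 8 over day 4 3.72, adjusted p = 0.0002). Ppp1r15a, the regulatory subunit that reverses eIF2α phosphorylation, had 64.02, 55.7 and 234 CPM (2.07, adjusted p = 0.000305). Chac1, a glutathione-degrading enzyme, had 18.9, 10.2 and 37.4 CPM (1.87, adjusted p = 0.0115). The 2 that were lower were the amino acid transporter gene Slc7a3 (-1.36, adjusted p = 0.0284) and the serine synthesis gene Psat1 (-0.46, adjusted p = 0.0298).

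Of the 7 interferon-responsive and innate sensing genes, 6 did not pass at day 8 against day 0. Apol9a was higher (14.3% of the group, against 33.5% of all tested genes). Their promoters are shown first. Of the 68 genes, 54 had a promoter window in RefSeq, taken as the 250 bases before an annotated start in build GRCm38.p6. A gene can have more than 1 window, and the 54 genes had 72. Shares count genes with a match in any of their windows. The promoters of tested genes were counted in the same way, with 10884 genes and 13948 windows. The interferon response element was searched as GAAA, any 2 bases and GAAA again on both strands, allowing overlaps, and it was found in 2 of the 54, Isg15 and Apol9a (3.7%), against 3.14% of the promoters of tested genes and 3.46% of all promoters. The matched letters of those 2 genes are printed in capitals with 30 bases on either side. They run 5′ to 3′ on the gene's strand (minus for both). They are printed because they are the matches of this element in the windows of the 54 genes. Isg15 holds 3 overlapping matches at chr4:156200845-156200926, and Apol9a holds 2 in reverse orientation at chr15:77411094-77411169.
Isg15: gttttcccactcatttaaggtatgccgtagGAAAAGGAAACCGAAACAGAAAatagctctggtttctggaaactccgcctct
Apol9a: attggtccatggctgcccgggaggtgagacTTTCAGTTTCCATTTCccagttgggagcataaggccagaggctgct
The first matched base lay 78 bases before the start in Isg15 and 59 in Apol9a. A match is a description of letters and not a binding site.

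Isg15, a ubiquitin-like protein that interferon-treated cells attach to other proteins, had 44.1, 28.9 and 33.9 CPM at day 0, 6.34, 16.5 and 6.38 CPM at day 4 and 29.9, 32.2 and 25.3 CPM at day 8. Day 8 and day 0 libraries overlapped, and at day 4 replicate 2 stood well above the other two. Its difference between day 8 and day 0 did not pass (log2 fold change -0.29 ± 0.33, adjusted p = 0.46). Usp18, the protease that removes ISG15 and damps interferon receptor signalling, had 9.92, 5.89 and 7.28 CPM at day 0, 0.501, 3.63 and 1.89 CPM at day 4 and 8.08, 7.23 and 6.48 CPM at day 8. Zbp1, a sensor of Z-form nucleic acids, had 15.02, 11.5 and 12.9 CPM at day 0, 2.42, 6.10 and 3.94 CPM at day 4 and 13.6, 13.1 and 15.5 CPM at day 8. Both followed Isg15 in that replicate 2 was the highest day 4 library and that day 8 reached the day 0 range, with log2 fold changes of -0.08 ± 0.47, adjusted p = 0.885 for Usp18 and 0.10 ± 0.27, adjusted p = 0.771 for Zbp1.

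Casp4, an inflammatory caspase that senses bacterial lipopolysaccharide, averaged 4.58 ± 0.187, 1.10 ± 0.680 and 4.15 ± 1.65 CPM at days 0, 4 and 8 (SD, n = 3 each). Phf11d, of an interferon-induced family of similar copies whose counts may be split between them, averaged 6.11 ± 0.0726, 1.89 ± 1.31 and 6.53 ± 2.00 CPM. Ch25h, which makes the antiviral oxysterol 25-hydroxycholesterol, had 2.00, 4.08 and 3.70 CPM at day 0, 0.125, 0.327 and 0.158 CPM at day 4 and 3.30, 3.31 and 4.35 CPM at day 8. Ch25h had the deepest dip of the group, at 6.23% of its day 0 mean, and these 3 genes did not pass at day 8 against day 0 (adjusted p = 0.773, 0.845 and 0.691). Apol9a, an interferon-induced apolipoprotein L gene with a near-identical copy, had 4.02, 5.15 and 3.76 CPM at day 0, 1.00, 2.69 and 1.26 CPM at day 4 and 7.63, 9.42 and 7.50 CPM at day 8. Every day 8 library was above every day 0 library, and Apol9a was the only one of the 7 to pass (log2 fold change 0.93 ± 0.33, adjusted p = 0.0282). The call was lost with total counts (0.56, adjusted p = 0.177) and on leaving out replicate 1 (0.85, 0.0891) or 3 (0.81, 0.0986) of day 0 or replicate 2 of day 8 (0.82, 0.087).

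More interferon genes stood beside these 7. Ifit1, Ifit3, Ifit3b, Ifi47 and Oasl2 met the same thresholds and were dropped by name. Ifit3, whose counts may be shared with its copy Ifit3b, had 21.7, 13.4 and 20.5 CPM at day 0, 1.79, 6.46 and 2.44 CPM at day 4 and 35.7, 24.2 and 16.5 CPM at day 8, and Oasl2 had 26.5, 18.9 and 21.95 CPM at day 0, 3.21, 8.93 and 5.00 CPM at day 4 and 18.98, 15.2 and 14.3 CPM at day 8. In a list of 41 tested interferon-stimulated genes, which holds 4 of the 68 (Isg15, Usp18, Zbp1 and Phf11d), 37 are not among the 68 genes. In 10 of the 37 every day 4 library lay under all others (27.0%, against 6.23% of all tested genes). Of the 37, 20 were lower (54.1%, against 26.0%) and 4 higher at day 4 than at day 0 (10.8%, against 28.6%), Ms4a4d, Lgals3bp and Dhx58 among the 4. At day 8 against day 4, 15 of the 37 were higher (40.5%, against 11.7%) and 3 lower (8.11%, against 10.8%). The highest rises were those of the antiviral gene Rsad2 (0.393, 0.0914 and 3.91 CPM at days 0, 4 and 8, with 7 counts in all over the 3 day 4 libraries, so that its fitted log2 fold change of 5.36, adjusted p = 0.000463 is imprecise), the checkpoint ligand Cd274 (1.92, adjusted p = 0.0031), the exonuclease gene Isg20 (1.65, adjusted p = 0.00128) and Herc6, an ISG15 ligase gene in mouse (1.56, adjusted p = 0.0392). Ms4a4d (-0.99, adjusted p = 0.0153) and Lgals3bp (-0.56, adjusted p = 0.021) were among the 3 that were lower. Among 11 guanylate-binding and immunity-related GTPases, 6 were lower (54.5%, against 26.0%) and 1, Iigp1, higher (9.09%, against 28.6%) at day 4 than at day 0. At day 8 against day 4 the 2 that passed, Gbp7 (2.07, adjusted p = 0.0135) and Igtp (0.80, adjusted p = 0.0261), were higher (18.2%, against 11.7% of all tested genes).

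**Figure D3:**
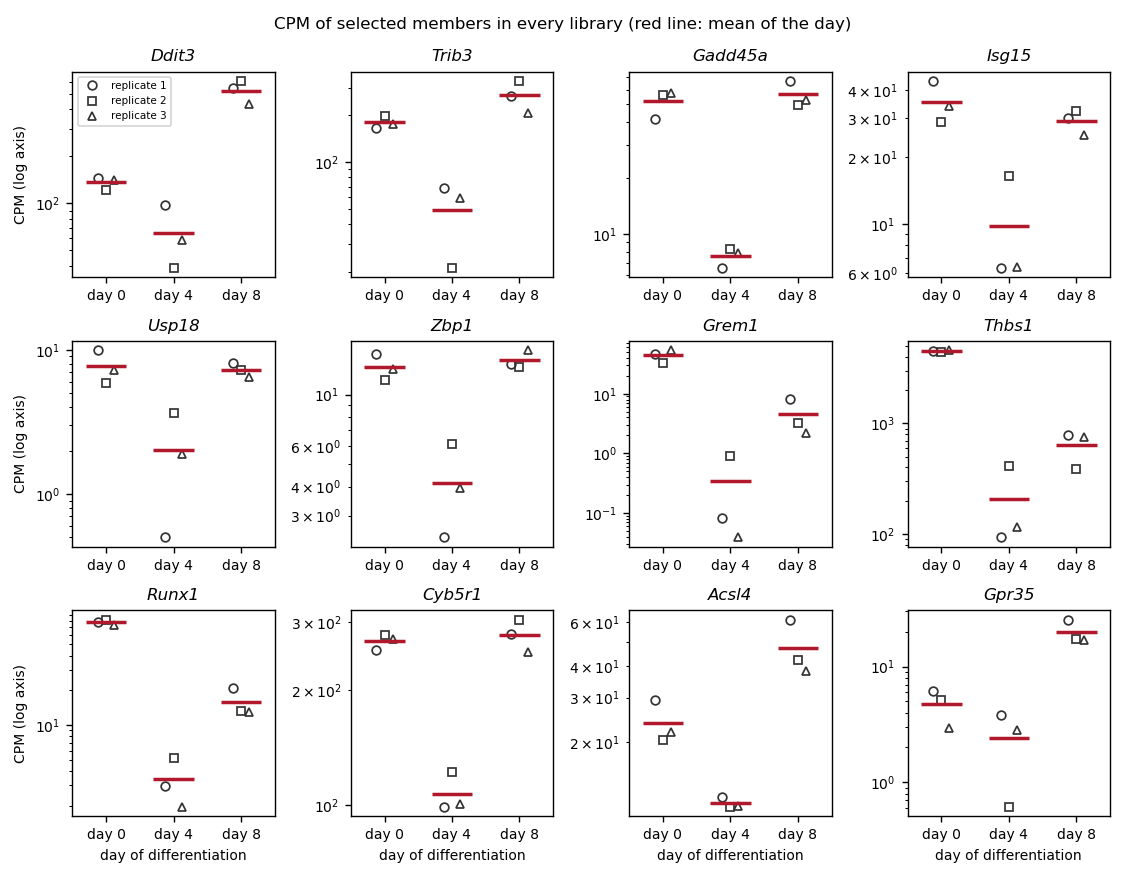
CPM (log axis) of 12 of the 68 genes in each library by day of differentiation, with a symbol for each replicate number and a red line at the mean of the day. Ddit3, Acsl4 and Gpr35 ended above day 0, Gadd45a, Isg15, Usp18, Zbp1 and Cyb5r1 near it, and Grem1, Thbs1 and Runx1 far under it; the square of day 4 replicate 2 lies above the other day 4 libraries for the interferon, secreted and matrix genes drawn and under them for Ddit3, Trib3 and Gpr35.

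The 4 genes for ligands and receptors of immune cells ended apart. Raet1d, a ligand of the killer cell receptor NKG2D from a family of near-identical copies, had 13.1, 13.3 and 14.1 CPM at day 0, 0.417, 1.49 and 0.236 CPM at day 4 and 4.48, 5.46 and 2.70 CPM at day 8. Siglecg, an inhibitory lectin that binds sialic acid, had 14.8, 15.8 and 11.4 CPM at day 0, 0.542, 2.21 and 0.788 CPM at day 4 and 5.86, 5.20 and 3.40 CPM at day 8. All day 8 libraries of both genes lay between day 4 and day 0, and both were lower than at day 0 (log2 fold changes -1.68 ± 0.45, adjusted p = 0.00724 for Raet1d and -1.54 ± 0.40, adjusted p = 0.00624 for Siglecg). Icosl, the ligand of the T cell costimulator ICOS, had 3.21, 2.75 and 3.58 CPM at day 0, 2.00, 1.38 and 1.38 CPM at day 4 and 4.41, 7.76 and 4.49 CPM at day 8. Icosl was higher at day 8 than at day 0 (log2 fold change 0.80 ± 0.29, adjusted p = 0.0338). With the replicate number as a block it did not pass (0.78, adjusted p = 0.0585). Nor did it without day 8 replicate 2, its highest library (0.49, 0.154), without any 1 of the day 0 replicates (0.69 to 0.87, adjusted p 0.0582 to 0.115) or with total counts (0.42, 0.189). Fgl2, a fibrinogen-like protein with prothrombinase activity, had 7.90, 7.29 and 18.3 CPM at day 0, 1.04, 3.59 and 1.77 CPM at day 4 and 9.58, 3.95 and 19.9 CPM at day 8. Replicate 3 was the highest library of Fgl2 at both day 0 and day 8, and the days overlapped (day 8 at 99.7% of day 0, adjusted p = 0.997).

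The 4 secreted signals, by contrast, came back only in part. All 4 were lower at day 8 than at day 0 (29.9% of all tested genes were), with a median log2 fold change of -2.60. Grem1 (ENSMUSG00000074934), a secreted antagonist of bone morphogenetic proteins, had 46.02, 32.6 and 53.3 CPM at day 0, 0.0835, 0.907 and 0.0394 CPM at day 4 and 8.29, 3.28 and 2.21 CPM at day 8. The day 4 levels of replicates 1 and 3 were near the limit of counting, and day 8 libraries did not reach the lowest day 0 library. Its log2 fold change of day 8 over day 0 was -3.26 ± 0.59, adjusted p = 0.000708. Inhba, the subunit of activin A, had 65.4, 40.5 and 38.2 CPM at day 0, 1.42, 1.63 and 1.38 CPM at day 4 and 15.7, 3.99 and 5.75 CPM at day 8. At day 8 replicate 1 held several times the level of the other 2 libraries, and all 3 were under day 0 (log2 fold change -2.50 ± 0.43, adjusted p = 0.000539). Angpt4, a ligand of the endothelial receptor TIE2, had 72.7, 74.8 and 66.6 CPM at day 0, 1.54, 5.95 and 2.17 CPM at day 4 and 11.1, 6.06 and 15.8 CPM at day 8. Its day 8 libraries were all far under day 0, and the lowest of them was close to the highest day 4 library (log2 fold change -2.70 ± 0.44, adjusted p = 0.000354).

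In the pathway around Grem1 and Inhba more genes were lower than higher at both later days. Of 36 tested genes of the transforming growth factor β and bone morphogenetic protein pathway that are not among the 68, 19 were lower (52.8%, against 26.0% of all tested genes) and 3 higher at day 4 than at day 0 (8.33%, against 28.6%), the 3 being Gdf5, Bmp3 and Id1. At day 8 against day 4, 10 were lower (27.8%, against 10.8%) and 4 higher (11.1%, against 11.7%). The 4 were Nog, another antagonist of bone morphogenetic proteins with 0.387, 0.648 and 3.94 CPM at days 0, 4 and 8 (log2 fold change 2.59, adjusted p = 0.00318), the inhibitory Smad gene Smad7 (23.2, 6.34 and 13.8 CPM; 1.12, adjusted p = 0.00876), the ligand Tgfb1 (96.2, 46.6 and 74.3 CPM; 0.67, adjusted p = 0.0101) and the activin antagonist Fstl3 (14.8, 6.50 and 9.75 CPM; 0.58, adjusted p = 0.0471). Smad7, Tgfb1 and Fstl3 were lowest at day 4, whereas Nog had its lowest mean at day 0. The largest falls after day 4 were those of Gdf10 (-1.92, adjusted p = 0.0123), Ltbp1 (-1.78, adjusted p = 0.00231), Fstl1 (-1.48, adjusted p = 0.047) and Tgfbr2 (-1.38, adjusted p = 0.00372). Against day 0, 26 of the 36 were lower at day 8 (72.2%, against 29.9%) and 4 higher (11.1%, against 33.5%).

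Of 6 genes of the matrix and its contacts, 4 were lower at day 8 (66.7%, against 29.9% of all tested genes) and 2 did not pass. Thbs1 (ENSMUSG00000040152), a matrix glycoprotein that activates latent transforming growth factor β, had 4534, 4384 and 4579 CPM at day 0, 93.8, 414 and 116 CPM at day 4 and 788, 386 and 756 CPM at day 8. Day 4 replicate 2, the highest of its day, was above the lowest day 8 library, so the dip of Thbs1 was not separated in every library. Thbs1 was far lower at day 8 (log2 fold change -2.81 ± 0.52, adjusted p = 0.00084), at 14.3% of the day 0 mean. Itga11, the α11 subunit of a collagen-binding integrin, had 446, 561 and 564 CPM at day 0, 26.3, 53.9 and 28.7 CPM at day 4 and 131, 86.6 and 124 CPM at day 8. Mmp3, the protease stromelysin 1, had 66.2, 91.96 and 77.6 CPM at day 0, 5.55, 8.09 and 6.62 CPM at day 4 and 11.9, 10.6 and 40.2 CPM at day 8. In Mmp3 replicate 3 stood alone at day 8, and in both genes every day 8 library was under day 0 (log2 fold changes -2.20 ± 0.28, adjusted p = 6.56e-05 for Itga11 and -1.91 ± 0.43, adjusted p = 0.00291 for Mmp3). Fndc1, a protein with fibronectin type III domains, averaged 47.2 ± 5.88, 4.92 ± 2.60 and 15.7 ± 4.10 CPM at days 0, 4 and 8 (SD, n = 3 each) and was lower at day 8 too (log2 fold change -1.59 ± 0.31, adjusted p = 0.00119).

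Podnl1, a small leucine-rich proteoglycan, had 3.94, 6.64 and 3.34 CPM at day 0, 0.709, 1.74 and 0.984 CPM at day 4 and 6.18, 6.93 and 13.6 CPM at day 8. Replicate 3 held the highest Podnl1 level at day 8, day 8 and day 0 overlapped, and the gene did not pass (log2 fold change 0.94 ± 0.40, adjusted p = 0.0604). It passed without day 0 replicate 2 (1.27, adjusted p = 0.0324), with DESeq2 (0.92, 0.043), without the filter on low counts (0.94, 0.0298), without day 4 replicate 1 (0.95, 0.0462) or 2 (0.89, 0.0364), and without day 8 replicate 1 (1.15, 0.0441). Of 31 other matrix proteases and inhibitors tested, 18 were lower (58.1%, against 26.0% of all tested genes) and 6 higher at day 4 than at day 0 (19.4%, against 28.6%). At day 8 against day 4, 10 were lower (32.3%, against 10.8%) and 1, the metalloproteinase gene Mmp12, was higher (adjusted p = 0.00447). Mmp12 had 106, 2 and 252 counts in all at days 0, 4 and 8, with both day 4 counts in replicate 1, so no fold is given. Against day 0, 24 of the 31 were lower at day 8 (77.4%, against 29.9%) and 2 higher (6.45%, against 33.5%).

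Among 5 regulators of transcription and RNA, 3 were lower at day 8 (60.0%, against 29.9% of all tested genes) and 2 did not pass. Runx1 (ENSMUSG00000022952), a Runt-domain transcription factor, had 78.01, 81.7 and 72.8 CPM at day 0, 2.96, 5.23 and 1.97 CPM at day 4 and 21.1, 13.1 and 12.97 CPM at day 8. Replicate 1 was highest at day 8 and still far under every day 0 library. Runx1 had a log2 fold change of -2.30 ± 0.30, adjusted p = 8.09e-05. Tgif1, a homeobox corepressor of Smad proteins, had 64.4, 66.2 and 68.3 CPM at day 0, 11.7, 20.7 and 13.03 CPM at day 4 and 46.3, 39.01 and 34.1 CPM at day 8, and it came back further (log2 fold change -0.74 ± 0.20, adjusted p = 0.00869). Mex3b, an RNA-binding protein, had 13.4, 17.3 and 15.7 CPM at day 0, 0, 0.907 and 0.748 CPM at day 4 and 4.20, 4.07 and 3.68 CPM at day 8. No count of Mex3b was seen in day 4 replicate 1, and its day 8 libraries were close to each other, all under day 0 (log2 fold change -1.96 ± 0.50, adjusted p = 0.00554). Nr1d2, the circadian repressor REV-ERBβ, had 27.98, 20.3 and 24.02 CPM at day 0, 7.59, 4.54 and 6.06 CPM at day 4 and 24.1, 12.6 and 14.4 CPM at day 8. In the fit without a block Nr1d2 did not pass (log2 fold change -0.50 ± 0.26, adjusted p = 0.119). With the replicate number as a block it was lower (-0.55, adjusted p = 0.0133), as it was without day 8 replicate 1, its highest (-0.84, 0.0131), and with total counts (-0.86, 0.0156). Trim66, a TRIM-family chromatin reader, averaged 20.6 ± 1.77, 4.79 ± 0.695 and 17.1 ± 3.41 CPM at days 0, 4 and 8 and did not pass (log2 fold change -0.27 ± 0.19, adjusted p = 0.219). With total counts it was lower (-0.64, 0.0139).

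Of 8 genes of receptor and kinase signalling, 3 were higher at day 8 than at day 0 (37.5%, against 33.5% of all tested genes) and 5 did not pass. Gpr35 (ENSMUSG00000026271), a G protein-coupled receptor of metabolite ligands, had 6.12, 5.12 and 2.96 CPM at day 0, 3.80, 0.617 and 2.84 CPM at day 4 and 25.5, 17.4 and 17.2 CPM at day 8. Day 4 replicates 1 and 3 lay within or near the day 0 range, and replicate 2 alone was far lower. At day 8 every library was above every other, at 423% of the day 0 mean (log2 fold change 2.08 ± 0.48, adjusted p = 0.00324). Pim1, a serine/threonine kinase downstream of cytokine receptors, had 24.5, 33.4 and 22.5 CPM at day 0, 13.1, 12.6 and 9.81 CPM at day 4 and 50.9, 69.97 and 35.1 CPM at day 8, and it was higher at day 8 in every library (log2 fold change 0.96 ± 0.25, adjusted p = 0.00607). Rgs17 and Rgs16 both encode GTPase-activating proteins that switch off G protein α subunits. Rgs17 had 4.50, 2.62 and 2.19 CPM at day 0, 1.84, 1.20 and 0.551 CPM at day 4 and 7.81, 6.44 and 6.38 CPM at day 8, and Rgs16 had 43.3, 44.1 and 34.1 CPM at day 0, 1.79, 14.7 and 4.33 CPM at day 4 and 25.2, 17.9 and 17.3 CPM at day 8. The 2 relatives ended on opposite sides of day 0: all day 8 libraries of Rgs17 were above day 0 and all of Rgs16 under it. Rgs17 passed (log2 fold change 1.14 ± 0.39, adjusted p = 0.0237). The call was lost with total counts (0.78, adjusted p = 0.0972) and on leaving out replicate 2 (1.02, 0.0837) or 3 (0.93, 0.0948) of day 0 or replicate 1 of day 8 (1.05, 0.0695). Rgs16 did not pass (log2 fold change -1.01 ± 0.53, adjusted p = 0.117). It did pass without day 4 replicate 2 (-1.06, 0.00242), its highest day 4 library, without day 4 replicate 1 (-1.0, 0.0269) and without the filter on low counts (-1.01, 0.0316).

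The 4 other signalling genes did not pass. Dusp5, the nuclear phosphatase of ERK, had 4.85, 7.16 and 3.58 CPM at day 0, 1.04, 3.08 and 2.21 CPM at day 4 and 7.53, 7.27 and 9.67 CPM at day 8, and its day 8 libraries were all above day 0 without passing (log2 fold change 0.65 ± 0.36, adjusted p = 0.136). Ptpn5, the phosphatase STEP, averaged 8.72 ± 2.34, 1.85 ± 0.155 and 9.37 ± 0.741 CPM at days 0, 4 and 8. Grb14, an adaptor that inhibits the insulin receptor, averaged 30.03 ± 4.15, 7.82 ± 2.49 and 25.2 ± 5.24 CPM. Their day 8 and day 0 libraries overlapped (log2 fold changes 0.11 ± 0.22 and -0.25 ± 0.24, adjusted p = 0.685 and 0.378). Nkd2, a Dishevelled-binding inhibitor of Wnt signalling, had 6.01, 5.54 and 7.10 CPM at day 0, 0.626, 1.74 and 0.945 CPM at day 4 and 4.13, 3.01 and 3.89 CPM at day 8. All its day 8 libraries were under day 0, and it did not pass (log2 fold change -0.76 ± 0.32, adjusted p = 0.0614). It passed without day 4 replicate 1 (-0.75, adjusted p = 0.0304) or 2 (-0.80, 0.0106), with total counts (-1.11, 0.0175) and with DESeq2 (-0.78, 0.0214).

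Dusp5 stood on a list of 37 tested immediate early genes, and in 6 of the other 36 every day 4 library lay under all others (16.7%, against 6.23% of all tested genes). Of the 36, 17 were lower (47.2%, against 26.0%) and 8 higher at day 4 than at day 0 (22.2%, against 28.6%). At day 8 against day 4, 10 were higher (27.8%, against 11.7%) and 5 lower (13.9%, against 10.8%). The stress and activator protein 1 genes Atf3 (2.12, 4.71 and 39.3 CPM at days 0, 4 and 8; log2 fold change 3.06, adjusted p = 0.00039), Ier3 (1.54, adjusted p = 0.00495) and Fosl2 (164, 54.4 and 127 CPM; 1.22, adjusted p = 0.00263) had the highest rises. The 5 that were lower were Klf4 (-1.87, adjusted p = 0.00659), Dusp4 (-1.02, adjusted p = 0.00547), Zfp36 (-0.92, adjusted p = 0.00183), Gadd45b (-0.78, adjusted p = 0.0473) and Myc (-0.76, adjusted p = 0.033). Dusp4, which encodes another ERK phosphatase, had 21.1, 63.7 and 31.4 CPM, a peak on the day when Dusp5 was lowest, and Gadd45b went down with Gadd45a to day 4 but had no return, with 40.9, 16.9 and 9.81 CPM.

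Of 8 genes that regulate small GTPases, the cytoskeleton and motors, 4 were lower, 1 was higher and 3 did not pass at day 8 against day 0. Among all tested genes 29.9% were lower and 33.5% higher in this comparison. Acta1, skeletal muscle α-actin, had 33.02, 36.04 and 29.6 CPM at day 0, 2.00, 5.95 and 1.58 CPM at day 4 and 6.97, 10.5 and 8.24 CPM at day 8. Its day 8 libraries lay between day 4 and day 0, and it was lower than at day 0 (log2 fold change -1.94 ± 0.39, adjusted p = 0.00137). The skeletal muscle marker list of 14 genes includes Acta1. The list summed to 33.7 to 44.0 CPM at day 0, 7.40 to 12.2 CPM at day 4 and 25.6 to 45.0 CPM at day 8. At days 0 and 4 only 2 of the 14 had a mean of 1 CPM or more, and Acta1 made up most of the day 0 sum. The fall of the sum at day 4 therefore largely restates the dip that chose Acta1. At day 8 Acta1 held 6.97 to 10.5 CPM, so most of that sum came from other genes of the list. The defining marker Pax7 had counts in day 4 replicate 2 only, and Myod1 had none. Kif21b, a kinesin motor, had 39.7, 52.5 and 42.3 CPM at day 0, 3.51, 6.28 and 5.75 CPM at day 4 and 17.3, 13.6 and 12.5 CPM at day 8 and was lower at day 8 (log2 fold change -1.63 ± 0.22, adjusted p = 0.000109). Arhgef28, an exchange factor for RhoA, averaged 9.94 ± 0.627, 2.09 ± 0.966 and 5.78 ± 1.21 CPM at days 0, 4 and 8 and was lower (log2 fold change -0.78 ± 0.29, adjusted p = 0.0359). The call was lost when any 1 of the day 0 replicates or day 8 replicate 2 or 3 was left out (-0.83 to -0.69, adjusted p 0.0633 to 0.108). Fnbp1l, a membrane-bending activator of actin assembly, averaged 10.4 ± 2.00, 1.78 ± 0.619 and 5.56 ± 1.25 CPM and was lower (log2 fold change -0.91 ± 0.28, adjusted p = 0.0156), but not without day 0 replicate 1 (-0.78, 0.0646) or day 8 replicate 2 (-0.77, 0.0604).

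Arhgap33, a GTPase-activating protein for small GTPases, had 17.1, 18.2 and 16.4 CPM at day 0, 2.75, 2.29 and 3.54 CPM at day 4 and 23.2, 35.3 and 25.9 CPM at day 8. Its day 8 libraries were above all others (log2 fold change 0.71 ± 0.20, adjusted p = 0.00917), a call lost with total counts (0.34, adjusted p = 0.125). Kalrn, an exchange factor for the GTPase Rac, averaged 10.9 ± 2.57, 1.76 ± 0.413 and 12.2 ± 2.62 CPM at days 0, 4 and 8. Elmo1, the partner of DOCK exchange factors, averaged 4.83 ± 1.13, 2.34 ± 0.194 and 6.36 ± 1.58 CPM, and Ccdc88a, the actin-binding protein girdin, averaged 5.83 ± 2.05, 2.00 ± 0.583 and 6.13 ± 1.40 CPM (SD, n = 3 each). The day 8 and day 0 libraries of these 3 overlapped (adjusted p = 0.576, 0.201 and 0.851).

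Several promoter elements stood in a larger share of the 54 genes with promoter windows than of the tested genes with them. The CArG box is shown first. The serum response element (CArG box) was searched on both strands by its usual 10-base pattern. It was present in 4 of the 54 genes with promoter windows (7.41%), against 1.39% of the promoters of tested genes and 1.62% of all promoters. With 4 matches this is a description. The genes were Acta1, Dgkh, Dusp5 and Stbd1. The windows of Acta1, Dusp5 and Stbd1 are printed because these genes differ in role and share the element. They run 5′ to 3′ on the gene's strand with the element in capitals (RefSeq, GRCm38.p6). Each has 30 bases on either side, except that Stbd1 ends at the start of the gene, fewer than 30 bases after the element. They lie at chr8:123894809-123894878 (minus strand), chr19:53529033-53529112 (plus strand) and chr5:92602985-92603050 (plus strand).
Acta1: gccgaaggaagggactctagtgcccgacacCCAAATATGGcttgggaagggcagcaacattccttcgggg
Dusp5: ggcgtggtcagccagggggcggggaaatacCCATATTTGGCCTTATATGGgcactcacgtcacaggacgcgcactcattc
Stbd1: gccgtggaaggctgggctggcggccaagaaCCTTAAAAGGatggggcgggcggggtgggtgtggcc
Dusp5 holds 2 elements side by side, the first starting 82 bases before the start, and the other genes printed hold 1 each, starting 73 bases before it in Acta1 and 36 in Stbd1. These genes did not end alike: Acta1 was at 26.1% of its day 0 mean at day 8, Dgkh at 84.96%, Stbd1 at 126% and Dusp5 at 157%.

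Of the other motifs, some stood above the background and some near or under it. The TATA box (TATAAA) was found in 10 of the 54 genes (18.5%, against 8.13% of tested and 14.3% of all promoters), among them Acta1, Angpt4, Inhba, Mmp3 and Trib3. Activator protein 1 sites (TGANTCA) were found in 6 (11.1%, against 5.76% and 7.82%), which were Apol9a, Ddit3, Fgl2, Gpr35, Mmp3 and Rgs17. The NF-kB motif matched in 9 (16.7%, against 10.7% and 8.23%), the E-box CACGTG in 3 (5.56%, against 9.91% and 6.86%) and the CCAAT box in 20 (37.0%, against 40.4% and 37.5%). The interferon-gamma activated site (TTC, any 3 bases and GAA) matched in 3 (5.56%, against 7.09% and 8.13%), which were Elmo1, Fgl2 and Tgif1. The antioxidant response element (TGACNNNGC) matched in 8 (14.8%, against 14.1% and 11.5%), the composite C/EBP-ATF element (TGATGNAAN) in 3 (5.56%, against 2.37% and 3.89%) and the cyclic AMP response element (TGACGTCA) in 1, Ch25h (1.85%, against 2.99% and 1.77%). The glucocorticoid response element had no match in the windows of the 54 genes, which says only that its letters are not there. It was held by 0.368% of tested and 0.44% of all promoters. The longest transcript in GENCODE M21 had a median of 3139 bases in the 68 genes and 3179 in all tested genes, and a GC content of 51.6% and 49.8%. No 2 of the 68 were neighbours among coding genes.

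Of 7 membrane and secretion genes, 4 were lower at day 8 (57.1%, against 29.9% of all tested genes). Another 2 were higher (28.6%, against 33.5%) and 1 did not pass. Aplp1, a relative of the amyloid precursor protein, had 70.7, 69.7 and 67.6 CPM at day 0, 7.97, 12.9 and 7.64 CPM at day 4 and 25.6, 24.6 and 25.7 CPM at day 8. The 3 day 8 libraries lay within about 1 CPM of each other and all under day 0 (log2 fold change -1.45 ± 0.19, adjusted p = 7e-05). Plscr2, of the phospholipid scramblase family, averaged 16.1 ± 1.12, 1.21 ± 0.585 and 5.73 ± 1.08 CPM at days 0, 4 and 8, and Plppr3, a phospholipid phosphatase-related protein, averaged 28.7 ± 5.45, 3.40 ± 2.15 and 14.2 ± 1.68 CPM (SD, n = 3 each). Both were lower at day 8 (log2 fold changes -1.49 ± 0.30, adjusted p = 0.00138 for Plscr2 and -1.01 ± 0.34, adjusted p = 0.0226 for Plppr3). The call of Plppr3 was lost when day 0 replicate 2 (-0.88, adjusted p = 0.0763) or day 8 replicate 1 (-0.96, 0.0696) or 3 (-0.96, 0.0666) was left out. Fxyd6, a regulator of the sodium pump, had 8.87, 15.8 and 23.1 CPM at day 0, 0.459, 0.327 and 0.433 CPM at day 4 and 1.67, 3.77 and 7.29 CPM at day 8. Replicate 3 was its highest library at days 0 and 8 and replicate 1 its lowest, and Fxyd6 was lower at day 8 (log2 fold change -1.91 ± 0.48, adjusted p = 0.005).

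Hid1, a protein of dense-core vesicle formation, had 4.80, 5.86 and 3.76 CPM at day 0, 1.29, 1.60 and 0.788 CPM at day 4 and 11.4, 14.5 and 9.36 CPM at day 8. Cacnb1, the β1 subunit of voltage-gated calcium channels, had 5.47, 4.57 and 6.15 CPM at day 0, 2.09, 1.96 and 1.81 CPM at day 4 and 8.47, 12.6 and 7.85 CPM at day 8. In both genes every day 8 library was above every day 0 library (log2 fold changes 1.29 ± 0.28, adjusted p = 0.00226 for Hid1 and 0.83 ± 0.23, adjusted p = 0.00927 for Cacnb1), but total counts left Cacnb1 over the threshold (0.46, adjusted p = 0.0865). Doc2b, a calcium sensor of vesicle fusion, averaged 5.42 ± 1.44, 0.750 ± 0.412 and 4.21 ± 0.548 CPM at days 0, 4 and 8, with overlap of day 8 and day 0 (adjusted p = 0.41).

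The 8 genes of lipid and energy metabolism ended at 49.7% to 204% of day 0, with 2 higher, 1 lower and 5 that did not pass. Both shares were under those of all tested genes, of which 33.5% were higher and 29.9% lower at day 8 than at day 0. Acsl4 (ENSMUSG00000031278), the ligase that activates arachidonic acid, had 29.2, 20.4 and 21.8 CPM at day 0, 12.1, 11.03 and 11.1 CPM at day 4 and 61.3, 42.4 and 38.4 CPM at day 8. Its day 4 libraries were close together and every day 8 library was above every day 0 library (log2 fold change 0.99 ± 0.20, adjusted p = 0.00134). Soat2, which esterifies cholesterol, had 2.56, 4.31 and 2.69 CPM at day 0, 0.835, 0.617 and 0.906 CPM at day 4 and 6.11, 7.04 and 5.08 CPM at day 8 and was higher at day 8 (log2 fold change 0.93 ± 0.28, adjusted p = 0.0138). The call was lost with total counts (0.56, adjusted p = 0.0875) and without day 0 replicate 1 (0.77, 0.0702) or 3 (0.80, 0.0661). Ugcg, glucosylceramide synthase, had 141, 130.0 and 168 CPM at day 0, 16.9, 29.8 and 15.04 CPM at day 4 and 112, 50.9 and 55.2 CPM at day 8. Replicate 1 was its highest library at day 8, and it was lower than at day 0 (log2 fold change -1.01 ± 0.32, adjusted p = 0.018). The call was lost on leaving out replicate 3 of day 0 (-0.92, 0.0564) or replicate 2 (-0.80, 0.0774) or 3 (-0.84, 0.0703) of day 8.

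Fabp3, the heart-type fatty acid-binding protein, had 14.04, 16.9 and 15.4 CPM at day 0, 0.876, 8.78 and 2.01 CPM at day 4 and 32.7, 51.6 and 10.3 CPM at day 8. Its libraries disagreed at both later days: replicate 2 was highest at day 4 and at day 8, and day 8 replicate 3 was under every day 0 library (log2 fold change 1.03 ± 0.67, adjusted p = 0.203). Stbd1, a glycogen-binding protein, had 76.2, 103 and 46.8 CPM at day 0, 16.4, 13.1 and 11.97 CPM at day 4 and 100.3, 95.5 and 88.8 CPM at day 8. Its day 0 libraries were spread over more than a 2-fold range, and it passed only without day 0 replicate 2 (0.61, adjusted p = 0.0404), not with all libraries (log2 fold change 0.33 ± 0.24, adjusted p = 0.246). Bdh2, a short-chain dehydrogenase, averaged 15.6 ± 1.66, 6.03 ± 3.08 and 17.8 ± 2.78 CPM at days 0, 4 and 8. Atp8b1, a phospholipid flippase, averaged 14.2 ± 1.86, 3.36 ± 0.139 and 13.99 ± 4.05 CPM, and Dgkh, diacylglycerol kinase η, averaged 7.10 ± 0.700, 2.22 ± 0.577 and 6.03 ± 2.15 CPM (SD, n = 3 each). Their adjusted p-values at day 8 against day 0 were 0.597, 0.933 and 0.487.

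Of 8 further genes, 2 were higher at day 8 than at day 0, none was lower and 6 did not pass. For comparison, 33.5% of all tested genes were higher and 29.9% lower. Cyb5r1, a cytochrome b5 reductase family member, had 255, 278 and 272 CPM at day 0, 99.1, 122 and 101 CPM at day 4 and 279.6, 305 and 251 CPM at day 8. Day 8 and day 0 overlapped closely, and the standard error was among the smallest of the 68 (log2 fold change 0.06 ± 0.14, adjusted p = 0.738). Lrrc1, a leucine-rich repeat protein, averaged 7.40 ± 0.793, 3.59 ± 0.726 and 14.8 ± 1.11 CPM at days 0, 4 and 8, and Triqk, a small membrane protein, averaged 8.21 ± 1.01, 3.51 ± 0.315 and 13.7 ± 1.82 CPM (SD, n = 3 each). Both were higher at day 8 in every library (log2 fold changes 1.00 ± 0.19, adjusted p = 0.000983 for Lrrc1 and 0.74 ± 0.18, adjusted p = 0.00457 for Triqk), and the call of Triqk was lost with total counts (0.38, adjusted p = 0.0942). Tfr2, transferrin receptor 2, had 3.05, 4.40 and 2.57 CPM at day 0, 2.75, 0.617 and 1.69 CPM at day 4 and 4.62, 3.47 and 6.55 CPM at day 8. Day 4 replicate 1 was above the lowest day 0 library, so its dip rested on the other two day 4 libraries. Cda, cytidine deaminase, averaged 25.6 ± 8.97, 5.25 ± 3.07 and 16.6 ± 4.10 CPM. Marchf9, a membrane-bound ubiquitin ligase, averaged 10.9 ± 1.79, 4.08 ± 1.16 and 11.2 ± 1.49 CPM. Sh2d6, an SH2 domain protein, averaged 3.99 ± 0.701, 1.02 ± 0.256 and 3.97 ± 0.352 CPM, and Morn4, a MORN-repeat protein, averaged 7.92 ± 0.964, 2.25 ± 0.587 and 6.05 ± 0.587 CPM. These 5 did not pass (adjusted p from 0.164 to 0.983). With total counts Cda (-1.0, 0.0374) and Morn4 (-0.75, 0.0206) were lower.

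The level at day 4 depended on the library. Day 4 replicate 2 was the highest of the 3 day 4 libraries for 41 of the 68 genes (60.3%, against 41.8% of tested genes) and the lowest for 13 (19.1%, against 41.0%). Its log2 ratio to the mean of replicates 1 and 3, computed on CPM + 0.1, was above 0 in 49 of the 68 (72.1%, against 49.8% of tested genes), with a median of 0.42. Roles were assigned after values were seen, and no difference between roles was tested. All 7 interferon-responsive genes were above 0, with a median of 1.30, and so were all 4 secreted signals (1.28), 5 of 6 matrix genes (0.68), 3 of 4 immune surface genes (1.44) and 4 of 5 transcription and RNA regulators (0.74). Above 0 were also 6 of 7 membrane and secretion genes (median 0.64), 7 of 8 receptor and kinase genes (0.19) and 6 of 8 regulators of GTPases, the cytoskeleton and motors (0.19). Of the stress genes only Gadd45a was above 0 (median of the 3, -1.02). Among genes of lipid and energy metabolism 3 of 8 were above 0 (-0.04), as were 3 of the 8 further genes (-0.24). Grem1, Fabp3 and Rgs16 had the widest gaps upward, at 14.8, 6.09 and 4.81 times the mean of the other two libraries, and Gpr35, Tfr2 and Trib3 the widest downward, at 0.186, 0.277 and 0.33 times. The part of the higher precursor gene sum of this library in these gaps was not tested.

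**Figure D4:**
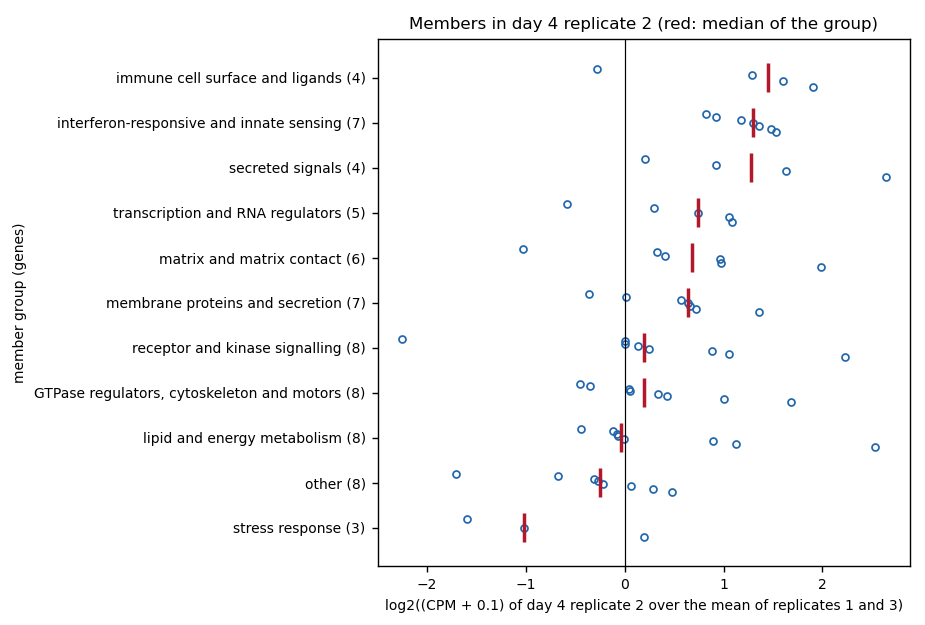
Log2 ratio, on CPM + 0.1, of day 4 replicate 2 to the mean of day 4 replicates 1 and 3 (horizontal axis) for each of the 68 genes (circles), by role; red bars are group medians. The 7 interferon-responsive genes lie to the right of 0 with a median of 1.30, and 2 of the 3 stress genes lie to the left with a group median of -1.02.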

How the data were processed

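The authors deposited raw counts of reads per Ensembl gene, 1 column per library, as a table without normalization. The submitters' processing notes name HISAT2, featureCounts and build GRCm39. Strand setting, annotation release and versions are not given in the sources used here. Counts of overlapping and antisense genes and of near-identical copies are therefore uncertain. The kit was a stranded total RNA kit and RNA came from a cleared detergent lysate, per the labels' protocols. Library totals were 26387408 to 31474490 counts; replicates of a day differed by more than sampling noise (chi-square per degree of freedom 15.5 to 229) and were kept apart.

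The 55359 genes were reduced to 14649 with filterByExpr, and 1 edgeR 4.0.16 quasi-likelihood fit (R 4.3.3) with TMM scaling took all 9 libraries without covariates, and p-values (two-sided) adjusted by Benjamini-Hochberg across the 14649, with 0.05 as threshold. The common dispersion was 0.0515. The fit was tested on simulated data. DESeq2 1.42.0, other scalings, no filter, each library left out and a replicate block were alternatives. Numbers shared by day 8 and day 0 libraries went with correlated deviations from the day means (0.39, 0.26 and 0.13), so they may pair those samples. For day 4 they did not (-0.16 to 0.12). The fit without covariates did not use this possible pairing, and the replicate block took the numbers of every day, day 4 included.

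The 68 genes, the gene lists and the tests were chosen with earlier results of these data known. Roles were assigned after values were seen. Any of the 68 genes could be named; other genes were named from the lists, up to 4 per list by the size of their change among those past the threshold, and all where 5 or fewer passed in a direction. Values of 2 of the 68 genes and of some other genes are not reported here; counts and medians over groups include them. Promoters are from RefSeq (GRCm38.p6).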

Additional observations from a re-analysis of the deposited data

How the results depend on the processing

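With 3 libraries a day, small changes of low genes were within the reach of 1 library. The count of genes past the threshold was 3285 for day 8 against day 4 (1894 to 4185 with 1 library left out), 9290 for day 8 against day 0 (8323 to 10111) and 7998 for day 4 against day 0 (6613 to 9110). Without day 4 replicate 2 these 3 counts were 3391, 10111 and 9110. With the replicate block they were 3105, 9368 and 8070. The block gave 12 of the 68 genes higher and 23 lower at day 8 than at day 0; besides Icosl and Nr1d2 it changed no other call among the 68.

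The 13 genes called higher at day 8 were 6 with total counts and 9 to 15 with 1 library left out. Among the genes also kept by the rule under TMM scaling they were 6 as well, but only Hid1 was in both sets of 6. The 22 called lower were 19 to 24 with 1 library left out, and 27 with total counts. The list of 68 genes held 145 genes with a bound of 2 times, 21 with 4 times, 103 with a minimum of 1 CPM, 33 with 10 CPM, 13 where the lowest day 0 and day 8 libraries were set against the highest day 4 library, and 58 to 127 with 1 library left out. Of 952 values of single genes recomputed, 852 kept their direction and side of the threshold, 33 lost a call, 21 gained one and 46 changed direction. No called gene changed sign, and the causes were not tested. Of the 35 called genes, 24 passed in every setting.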

Other observations

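Within day 8 and day 0, too, the 68 genes were not spread evenly over the libraries. Day 8 replicate 1 was the highest day 8 library for 33 of them (48.5%, against 32.7% of tested genes) and day 8 replicate 3 the lowest for 33 (48.5%, against 27.7%). Day 0 replicate 2 was the highest day 0 library for 32 (47.1%, against 35.6%) and day 0 replicate 3 the lowest for 30 (44.1%, against 31.9%).

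Among the genes that met the thresholds and were dropped by name, Car6, a secreted carbonic anhydrase, had 13.1, 15.4 and 10.8 CPM at day 0, 1.17, 2.14 and 1.89 CPM at day 4 and 19.7, 21.2 and 13.4 CPM at day 8. Every day 4 library was far under the rest, and day 8 and day 0 overlapped (log2 fold change of day 8 over day 0 0.47 ± 0.24, adjusted p = 0.115). Ifi47, an interferon-inducible GTPase, had 8.98, 8.71 and 7.60 CPM at day 0, 0.793, 1.74 and 0.591 CPM at day 4 and 3.19, 2.60 and 4.70 CPM at day 8. Like Raet1d and Siglecg it came back only in part, and it was lower at day 8 than at day 0 (log2 fold change -1.27 ± 0.36, adjusted p = 0.00947).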
